A study of Homo sapiens with 12 samples.

Results

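The immediate early genes of the EGR, FOS and JUN families, together with IER2 and IER3, were followed in NCCIT cells after siRNA depletion of chromatin regulators. Members were the transcript clusters (the groups of probes that report 1 transcript) annotated with a single gene symbol out of a list of 10, namely EGR1, EGR2, EGR3, FOS, FOSB, FOSL1, JUN, JUNB, IER2 and IER3. The list matched 11 of 33297 transcript clusters, which stood for 9 of the 18417 genes tested, while EGR2 had no cluster of its own and was not analysed here. IER3 had 3 clusters, a pair of them with equal values on all 12 arrays, and the brightest stood for the gene.

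NCCIT is an established human embryonal carcinoma line with features of pluripotent cells. Cells received siRNA against WDR5 (siWDR5), EED (siEED), RNF2 (siRNF2), EED and RNF2 together (siEED+RNF2) or SETD2 (siSETD2), or a non-targeting siRNA (siNTC), and each of these 6 conditions was measured on 2 Affymetrix Human Gene ST arrays from 250 ng of total RNA per array. WDR5 is a core subunit of the MLL/COMPASS H3K4 methyltransferases, EED of polycomb repressive complex 2 and RNF2 of polycomb repressive complex 1, and SETD2 trimethylates H3K36. Apart from siSETD2, which the study's methods do not describe, the gene-directed siRNAs were pools against a single gene, and medium was renewed between the last transfection and the harvest. The dual transfection combined both pools, each in the amount used alone, with more transfection reagent, so it held more siRNA and reagent in total than the single-target transfections. The siNTC arrays are titled as re-analysed, and whether the arrays of a condition come from separate cultures is not given, so the p-values reflect variation between these arrays alone, which may be technical, and their number limits the precision. All 5 knockdowns were set against the same 2 siNTC arrays. In bulk RNA, fewer cells with a transcript and less of it per cell cannot be told apart.

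Immediate early genes are switched on within minutes of a growth factor, serum or stress signal, without new protein synthesis, largely through the ERK cascade acting on serum response factor and its ETS partners and through CREB. EGR proteins are zinc finger transcription factors, and FOS and JUN proteins pair through leucine zippers to form AP-1, in which FOS proteins need a JUN partner while JUN proteins can also pair with each other. In unstimulated growing cells these transcripts are short-lived, and their level can follow the signalling that the cells receive at the time, which was not measured here.

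The upstream sequences of EGR1, FOS and JUN are shown because these 3 genes had the widest ranges among the members. EGR1 and FOS both fell in the polycomb knockdowns, where JUN did not. Each is the 250 bases before the RefSeq start site in GRCh38.p14, written 5′ to 3′ on the strand of the gene, at chr5:138465229-138465478 on the plus strand for EGR1, chr14:75278578-75278827 on the plus strand for FOS and chr1:58784048-58784297 on the minus strand for JUN. Capitals mark every match to the motifs searched.
EGR1: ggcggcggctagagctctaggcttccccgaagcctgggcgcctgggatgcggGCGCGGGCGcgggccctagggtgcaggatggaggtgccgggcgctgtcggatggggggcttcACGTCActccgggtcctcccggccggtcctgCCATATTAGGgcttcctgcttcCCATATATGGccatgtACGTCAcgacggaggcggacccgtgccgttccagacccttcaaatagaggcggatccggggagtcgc
FOS: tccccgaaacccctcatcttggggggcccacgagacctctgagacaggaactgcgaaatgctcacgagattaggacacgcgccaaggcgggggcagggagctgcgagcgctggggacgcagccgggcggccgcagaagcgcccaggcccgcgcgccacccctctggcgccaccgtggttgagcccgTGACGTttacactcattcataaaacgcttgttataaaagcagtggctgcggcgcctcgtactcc
JUN: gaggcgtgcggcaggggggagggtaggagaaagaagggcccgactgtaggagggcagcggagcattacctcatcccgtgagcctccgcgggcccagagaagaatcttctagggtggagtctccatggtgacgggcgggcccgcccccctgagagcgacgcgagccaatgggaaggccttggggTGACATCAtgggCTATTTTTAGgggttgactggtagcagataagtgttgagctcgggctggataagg

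The motifs searched on both strands were the CArG box of serum response factor, the MEF2 box, the core of the cAMP response element TGACGT, the AP-1 site TGACTCA, the variant of it known from JUN TGACATCA, the ETS site CCGGAA and the EGR site GCGNGGGCG. EGR1 held 2 CArG boxes, CCATATTAGG at -105 to -96 and CCATATATGG at -83 to -74 from the start site, and 1.16% of the 35116 promoters in the table held a CArG box in the same window. It also held the cAMP response core on the minus strand at -136 to -131 and at -67 to -62 (7.1% of promoters) and an EGR site at -198 to -190 (8.41% of promoters). FOS held the same core at -64 to -59 and FOSB at -60 to -55. JUN held TGACATCA at -67 to -60 (2.37% of promoters) and a MEF2 box, CTATTTTTAG, at -55 to -46 (2.8% of promoters). FOSB held an ETS site at -205 to -200 and IER2 at -26 to -21 (14.5% of promoters), TGACTCA (4.2% of promoters) was found in none of the 6 genes searched, and JUNB held no match. No 2 matches overlapped. A match is a description of the letters and not a site in use, and letters outside this window were not searched.

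**Figure D1:**
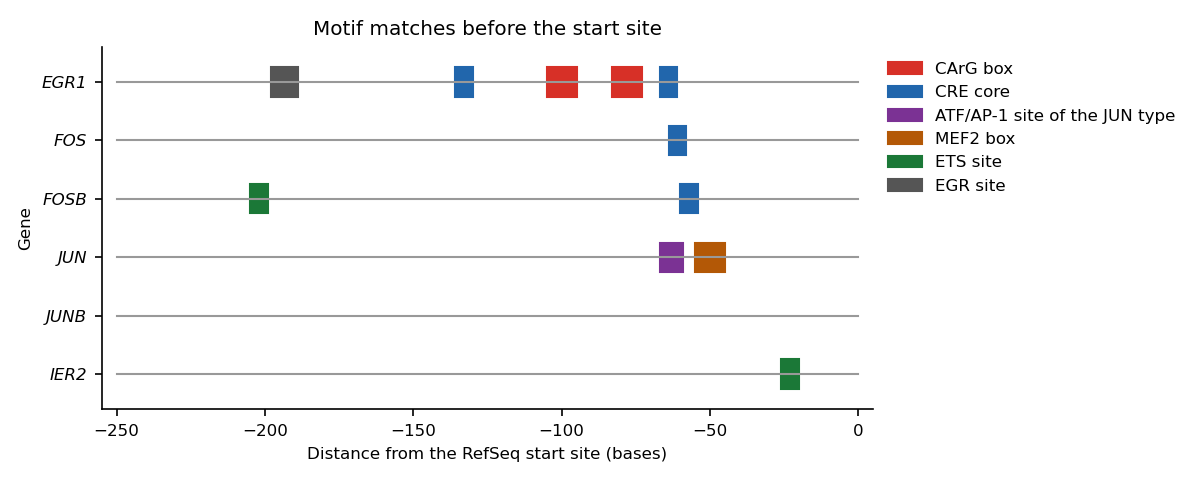
Motif matches in the 250 bases before the RefSeq start site of 6 immediate early genes. The horizontal axis is the distance from the start site in bases, each row is a gene and each block is a match on either strand. EGR1 has 5 matches, among them 2 CArG boxes, and JUNB has 0.

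Expression values are on the log2 scale, as deposited after background correction and normalization between arrays. Replicate arrays correlated at 0.996 to 0.997 over all transcript clusters, and the median over the 18417 genes lay between 6.83 and 6.97 on every array. In siWDR5, WDR5 stood at 8.39 and 8.24, against 9.48 and 9.58 in siNTC, and EED and SETD2 were likewise called lower in the knockdowns directed at them, while the RNF2 transcript was not analysed here. The siEED arrays had EED at 8.25 and 8.14, the siRNF2 arrays at 8.85 and 8.80 and the dual siEED+RNF2 arrays at 7.93 and 7.82, against 9.55 and 9.43 in siNTC. This left 40.8% of the siNTC signal for siEED, 63.2% for siRNF2 and 32.7% for the dual depletion. It was thus also called lower in siRNF2 (log2 fold change -0.66, limma adjusted p = 5.4e-05), and it was lower without reaching 1.5-fold in siWDR5 (-0.54, adjusted p = 0.00041) and siSETD2 (-0.42, adjusted p = 0.0022). Of 10 pluripotency markers 7 were measured, with condition means of 9.52 to 12.83. Markers of other cell types were dimmer, with condition means of 4.01 to 4.70 over 5 blood cell markers, 4.18 to 6.31 over 8 fibroblast markers, 4.33 to 5.84 over 8 endoderm and yolk sac markers, and 4.41 to 8.61 over 5 neuroectoderm markers. None of these was called in any knockdown except the fibroblast marker POSTN, called lower in all 5. At a raw p under 0.05 in limma at most 3 of the blood, endoderm or neuroectoderm list passed in 1 direction. Of the 8 fibroblast markers 2, 3, 4, 1 and 4 were lower at that limit in siWDR5, siEED, siRNF2, siEED+RNF2 and siSETD2, and 0 higher.

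EGR1 fell in all 5 knockdowns, most in siRNF2. FOS and IER3 fell in the 3 polycomb knockdowns siEED, siRNF2 and siEED+RNF2. JUN rose in siWDR5 and siRNF2 and fell in siSETD2, and FOSL1 rose in siWDR5. A gene was called where the Benjamini-Hochberg adjusted p over all genes in limma was below 0.05 and the change was 1.5-fold or more. By this rule 3 of 9 members were called in siWDR5 (2 higher and 1 lower), where 6.02% of all genes were called (2.8% higher and 3.22% lower). In siEED 3 were called, all lower, where 6.37% of all genes were called (3.74% higher and 2.63% lower). In siRNF2 4 were called (1 higher and 3 lower), where the shares of all genes were 10.2%, with 6.37% higher and 3.81% lower. In siEED+RNF2 3 were called, all lower, where 11.5% of all genes were called (5.49% higher and 6.02% lower). In siSETD2 2 were called, both lower, where 5.82% of all genes were called (2.64% higher and 3.18% lower). The median log2 fold change over the 9 members was 0.15, -0.17, -0.12, -0.03 and 0.09 in the order of the knockdowns above, beside -0.03, -0.03, -0.04, -0.02 and -0.01 over all genes. At a raw p under 0.05 in limma and any fold, 3 members were higher and 5 lower in siEED, where none was called higher. In siEED+RNF2 3 were higher and 3 lower and in siSETD2 1 and 2, again with none called higher. The share of all genes at a raw p was not taken, so raw counts here and below are descriptions. At an adjusted p under 0.05 in limma and any fold, 35.4% of all genes passed in siEED, 42.1% in siEED+RNF2 and 31.7% in siSETD2. The members did not move as a block, since in siWDR5 and siRNF2 called members went both ways.

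**Figure D2:**
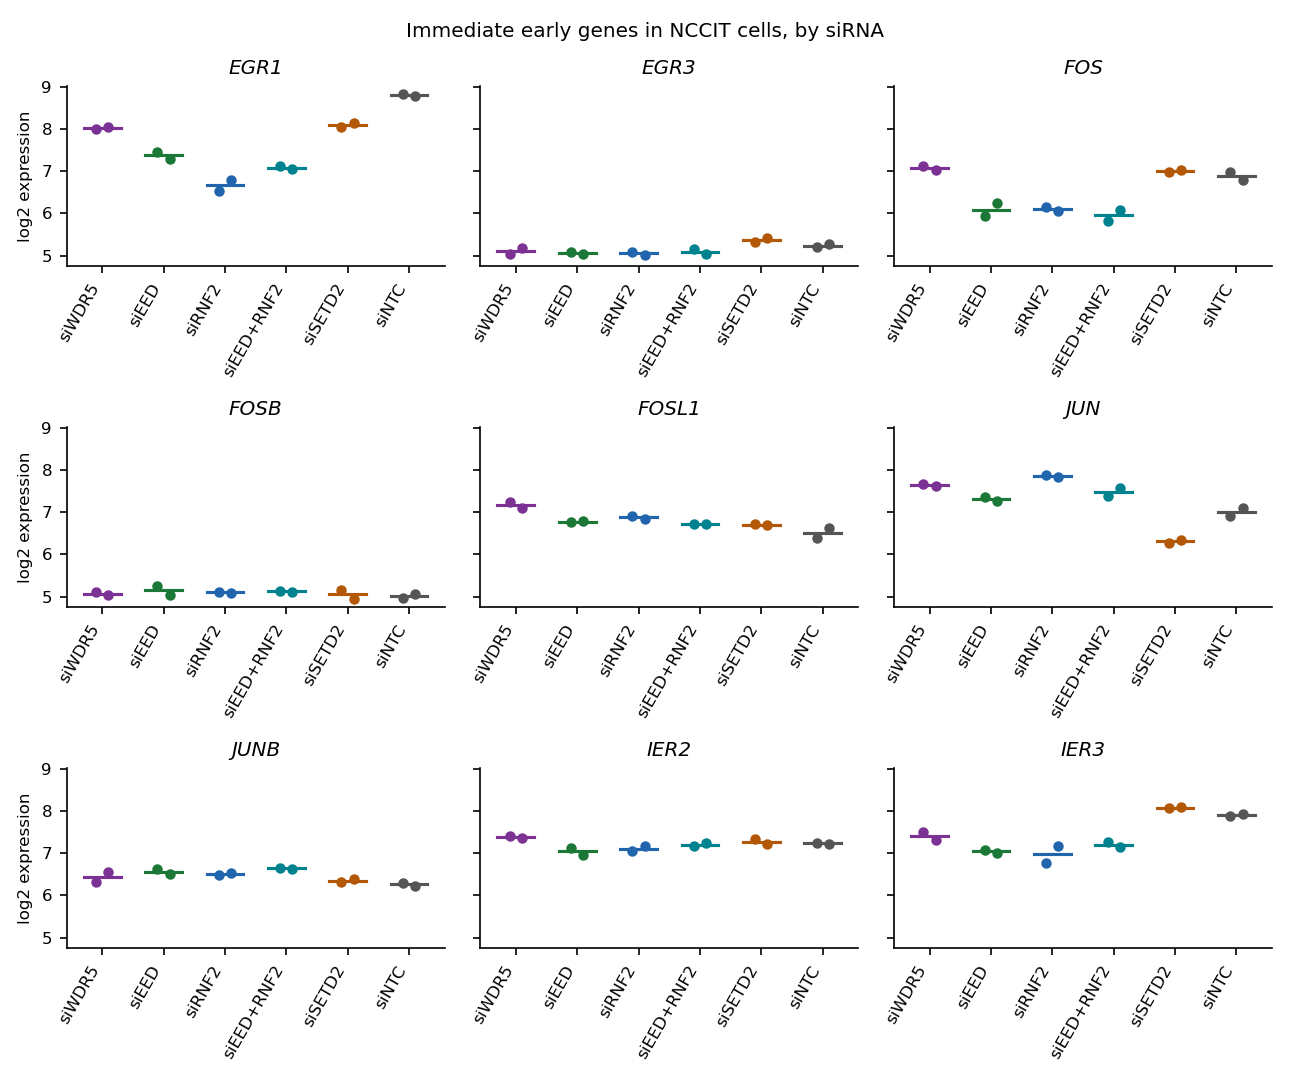
Log2 expression (vertical axis) of the 9 measured members on each of the 12 arrays, by siRNA (horizontal axis). Points are arrays and bars are the means of the 2 arrays of a condition. EGR1 lies between 6.54 and 8.13 in the knockdowns and at 8.82 and 8.78 in siNTC.

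EGR1, which couples ERK signalling to genes of growth and differentiation, stood at 8.0 and 8.04 in siWDR5, 7.46 and 7.29 in siEED, 6.54 and 6.80 in siRNF2, 7.13 and 7.04 in the dual siEED+RNF2, and 8.04 and 8.13 in siSETD2, against 8.82 and 8.78 in siNTC. All 10 knockdown arrays lay below both siNTC arrays, and the siRNF2 arrays lay below all others. On the linear scale 22.9% of the siNTC signal was left in siRNF2, 30.5% in siEED+RNF2, 37.3% in siEED, 58.4% in siWDR5 and 60.8% in siSETD2. The log2 fold change (log2FC, with its standard error SE from limma) was -0.78 in siWDR5 (SE 0.09, limma adjusted p = 5.1e-05), -1.71 in siEED+RNF2 (SE 0.09, adjusted p = 5.5e-08) and -0.72 in siSETD2 (SE 0.09, adjusted p = 9.2e-05). All 15 pairs of conditions were compared in the same fit, each adjusted over all genes. From high to low, siNTC was followed by siSETD2 and siWDR5, which did not differ beyond their spread (siSETD2 minus siWDR5 0.06, 95% interval -0.14 to 0.25, limma adjusted p = 0.68), and then by siEED, siEED+RNF2 and siRNF2, where each step passed an adjusted p of 0.05 in limma (0.00035 for siWDR5 and siEED, 0.048 for siEED+RNF2 and siEED, 0.0065 for siEED+RNF2 and siRNF2). Without a fold threshold many genes pass this limit, namely, against siNTC, 33.8% of all genes for siWDR5, 35.4% for siEED, 43% for siRNF2, 42.1% for siEED+RNF2 and 31.7% for siSETD2. Among the polycomb knockdowns 10.7% passed between siEED and siRNF2, 13.7% between siEED and siEED+RNF2 and 17.4% between siRNF2 and siEED+RNF2. Set beside siWDR5, the shares were 20.1% for siEED, 29.9% for siRNF2, 30.6% for siEED+RNF2 and 31.6% for siSETD2, and set beside siSETD2 they were 31.7% for siEED, 38% for siRNF2 and 38.5% for siEED+RNF2. The direction in siWDR5 and siSETD2 depends on siNTC as the reference: against the mean of the other knockdowns, which include those where EGR1 is lowest, the log2FC was 0.72 in siWDR5 and 0.79 in siSETD2. In siEED that reference gave -0.21 (limma adjusted p = 0.074), which ends the call.

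EGR3, a related zinc finger factor induced by many of the same signals, was among the 30% of genes with the lowest mean signal. It stood at 5.04 and 5.19 in siWDR5, 5.08 and 5.05 in siEED, 5.09 and 5.02 in siRNF2, 5.16 and 5.04 in the dual siEED+RNF2, and 5.32 and 5.41 in siSETD2, against 5.20 and 5.28 in siNTC. The siSETD2 arrays lay just above both siNTC arrays and the 8 other knockdown arrays just below them, within a span of 0.31 between condition means. Its log2FC ran from -0.19 in siRNF2 (95% interval -0.35 to -0.03, limma adjusted p = 0.057) to 0.12 in siSETD2 (95% interval -0.04 to 0.28, adjusted p = 0.24), and none was called.

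FOS, the AP-1 subunit that lends its name to the family, stood at 7.13 and 7.03 in siWDR5, 5.93 and 6.24 in siEED, 6.15 and 6.06 in siRNF2, 5.83 and 6.08 in the dual siEED+RNF2, and 6.99 and 7.03 in siSETD2, against 6.99 and 6.79 in siNTC. The 6 arrays of the polycomb knockdowns lay below the 6 others with no overlap, and within each of these sets of conditions the arrays ran together. In siEED 57.4% of the siNTC signal was left, in siRNF2 58.3% and in siEED+RNF2 52.5%. The log2FC was -0.80 in siEED (SE 0.11, limma adjusted p = 0.0002), -0.78 in siRNF2 (SE 0.11, adjusted p = 0.00016) and -0.93 in siEED+RNF2 (SE 0.11, adjusted p = 3.4e-05). It was 0.20 in siWDR5 (95% interval -0.05 to 0.44, limma adjusted p = 0.2) and 0.12 in siSETD2 (95% interval -0.12 to 0.37, adjusted p = 0.44), so neither was called. With the mean of the other knockdowns in place of siNTC, FOS was called higher in both, at 0.79 and 0.70.

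FOSB, a second FOS subunit, was also among the 30% dimmest genes. It stood at 5.11 and 5.03 in siWDR5, 5.25 and 5.05 in siEED, 5.11 and 5.10 in siRNF2, 5.14 and 5.12 in the dual siEED+RNF2, and 5.17 and 4.94 in siSETD2, against 4.96 and 5.07 in siNTC. Arrays of different conditions were intermingled, and the 6 condition means spanned 0.13. The log2FC values were 0.04 to 0.13, with adjusted p of 0.28 to 0.77 in limma. The 95% intervals reached 0.33 at most, in siEED.

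FOSL1, the FRA1 subunit that often follows sustained ERK signalling, stood at 7.25 and 7.09 in siWDR5, 6.76 and 6.79 in siEED, 6.91 and 6.84 in siRNF2, 6.73 and 6.73 in the dual siEED+RNF2, and 6.72 and 6.69 in siSETD2, against 6.38 and 6.62 in siNTC. The siWDR5 arrays were the highest, all 10 knockdown arrays lay above both siNTC arrays, and the siNTC arrays were the furthest apart of any condition. FOSL1 rose by a log2FC of 0.67 in siWDR5 (SE 0.08, limma adjusted p = 9.2e-05), which was also above siRNF2, the next condition, by 0.29 (adjusted p = 0.018). In the other knockdowns the log2FC was 0.21 in siSETD2, 0.27 in siEED, 0.37 in siRNF2 and 0.23 in the dual depletion, short of 1.5-fold. The adjusted p in limma was 0.08, 0.026, 0.0032 and 0.044 in that order, so siSETD2 missed that limit as well. Without siNTC replicate 1 the change in siWDR5 was 0.55 and not called. Against the mean of the other knockdowns it was 0.40 and also not called.

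JUN, the AP-1 subunit that can act with FOS or with itself, stood at 7.66 and 7.62 in siWDR5, 7.37 and 7.27 in siEED, 7.89 and 7.82 in siRNF2, 7.39 and 7.57 in the dual siEED+RNF2, and 6.28 and 6.35 in siSETD2, against 6.92 and 7.09 in siNTC. The siSETD2 arrays lay below both siNTC arrays and the 8 arrays of the other knockdowns lay above them. JUN rose by a log2FC of 0.64 in siWDR5 (SE 0.08, limma adjusted p = 0.00013) and 0.85 in siRNF2 (SE 0.08, adjusted p = 8.3e-06), and in siSETD2 its log2FC was -0.69 (SE 0.08, adjusted p = 7.3e-05), which left 61.8% of the siNTC signal. In siEED the value was 0.31 (limma adjusted p = 0.012) and in siEED+RNF2 0.48 (adjusted p = 0.00059), both short of 1.5-fold. The level in siSETD2 differed from siNTC and siNTC from siEED, while the neighbours siEED, siEED+RNF2, siWDR5 and siRNF2 did not differ in turn (adjusted p = 0.22, 0.18 and 0.07 in limma). Without siNTC replicate 1 the change in siWDR5 was 0.55 and not called, and against the mean of the other knockdowns it was 0.40.

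JUNB, a JUN relative that can restrain JUN, stood at 6.31 and 6.55 in siWDR5, 6.62 and 6.51 in siEED, 6.49 and 6.54 in siRNF2, 6.66 and 6.63 in the dual siEED+RNF2, and 6.31 and 6.38 in siSETD2, against 6.30 and 6.23 in siNTC. All knockdown arrays lay above both siNTC arrays, by little in siSETD2 and in siWDR5 replicate 1. The log2FC was 0.39 in siEED+RNF2 (95% interval 0.21 to 0.56, limma adjusted p = 0.0021) and 0.09 to 0.30 elsewhere, and none reached 1.5-fold.

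IER2, a short-lived nuclear protein of the early serum response, stood at 7.40 and 7.37 in siWDR5, 7.13 and 6.95 in siEED, 7.05 and 7.17 in siRNF2, 7.16 and 7.25 in the dual siEED+RNF2, and 7.34 and 7.21 in siSETD2, against 7.25 and 7.21 in siNTC. The siWDR5 arrays were the highest and the siEED arrays among the lowest, within a span of 0.34 between condition means. Its log2FC was -0.19 in siEED (95% interval -0.36 to -0.02, limma adjusted p = 0.083) and 0.15 in siWDR5 (95% interval -0.02 to 0.33, adjusted p = 0.16), and none was called.

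IER3, a stress-inducible regulator of survival and of ERK signalling, stood at 7.50 and 7.30 in siWDR5, 7.07 and 7.01 in siEED, 6.77 and 7.17 in siRNF2, 7.27 and 7.14 in the dual siEED+RNF2, and 8.07 and 8.08 in siSETD2, against 7.88 and 7.92 in siNTC. The 8 arrays of siWDR5 and the polycomb knockdowns lay below both siNTC arrays, the siSETD2 arrays lay above them, and the siRNF2 arrays were the furthest apart. The log2FC was -0.86 in siEED (SE 0.11, limma adjusted p = 0.00012), -0.93 in siRNF2 (SE 0.11, adjusted p = 4.2e-05) and -0.69 in siEED+RNF2 (SE 0.11, adjusted p = 0.00035). It was 0.17 in siSETD2 (95% interval -0.07 to 0.42, limma adjusted p = 0.28), and in siWDR5 it was -0.50 (adjusted p = 0.0046), short of 1.5-fold. Without siWDR5 replicate 1 it was called there (-0.60). Against the mean of the other knockdowns it was not called in siEED (-0.44), siRNF2 (-0.53) or siEED+RNF2 (-0.53), and it was called higher in siSETD2 (0.92). These values are those of the brightest cluster. On the pair of clusters with equal values, siWDR5 stood at 7.34 and 7.30, nearer to siNTC at 7.65 and 7.70. The siRNF2 arrays, at 6.73 and 6.85, were nearer to each other there. Leaving out an array was not tried on that pair.

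**Figure D3:**
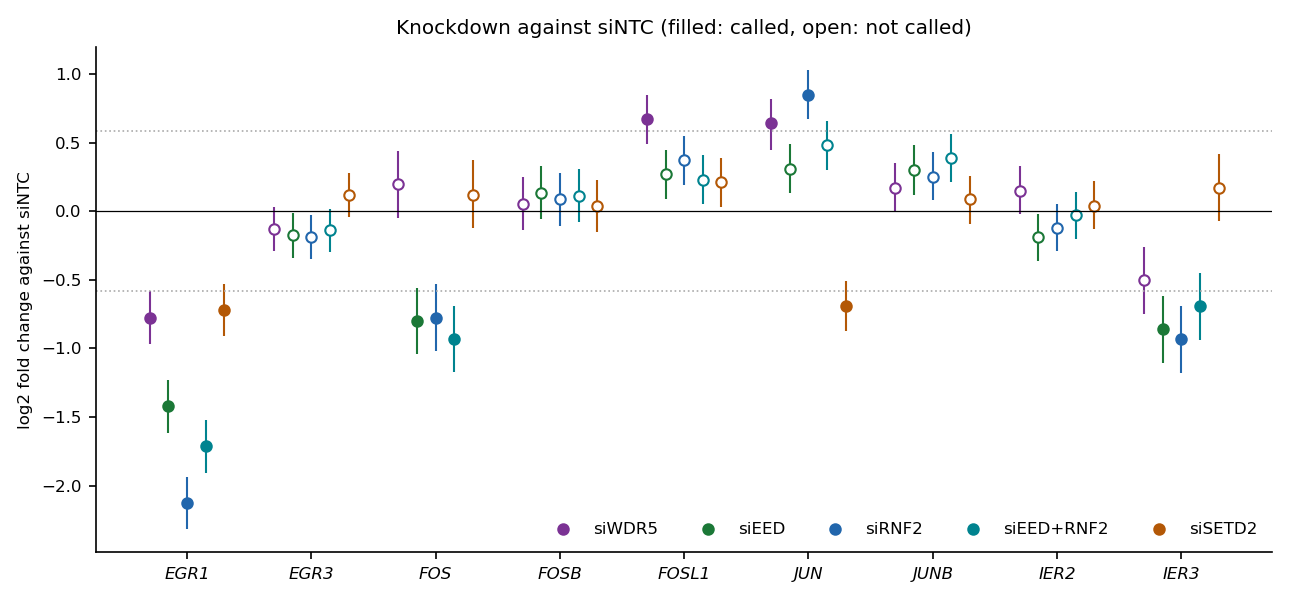
The vertical axis is the log2FC against siNTC of the 9 members (horizontal axis) in the 5 knockdowns, with 95% intervals from limma. Filled points are called, open points are not, and dotted lines mark 1.5-fold. EGR1 reaches -2.13 in siRNF2, JUN runs from -0.69 in siSETD2 to 0.85 in siRNF2, and FOSB has open points throughout.

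Depletion of the polycomb complexes was next compared directly, without the siNTC arrays. Between siRNF2 and siEED, EGR1 was the 1 member of 9 called, where 1.26% of all genes were called (0.793% higher and 0.467% lower). EGR1 stood at 6.54 and 6.80 in siRNF2, against 7.46 and 7.29 in siEED, a log2FC of -0.71 (SE 0.09, limma adjusted p = 0.00057). JUN stood at 7.89 and 7.82 in siRNF2, against 7.37 and 7.27 in siEED, a log2FC of 0.54 (95% interval 0.36 to 0.72, limma adjusted p = 0.002) that fell short of 1.5-fold. For FOS and IER3 the differences were 0.02 (95% interval -0.22 to 0.27) and -0.07 (95% interval -0.31 to 0.18). Without siRNF2 replicate 1 EGR1 was not called (-0.58), and without siEED replicate 1 JUN was called (0.59).

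None of the 9 members was called between siEED+RNF2 and siEED, or between siEED+RNF2 and siRNF2, where limma called 2.91% of all genes (0.157% higher and 2.75% lower) and 3.27% (0.239% higher and 3.03% lower). At a raw p under 0.05, whatever the fold, 1 member passed in the first comparison, EGR1 at -0.29 (95% interval -0.48 to -0.10). In the second 2 passed, EGR1 at 0.41 (95% interval 0.22 to 0.61) and JUN at -0.38 (95% interval -0.56 to -0.20). EGR1 in the dual depletion thus lay between the values of the single depletions, at 7.13 and 7.04 in siEED+RNF2. The mean of JUN also lay between theirs, but it was not separated from siEED (0.17, 95% interval -0.02 to 0.35, limma adjusted p = 0.22).

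The effects of the single knockdowns did not add up on the log2 scale for 4 members, EGR1, FOS, IER3 and JUN. The interaction (the log2FC of siEED+RNF2 minus those of siEED and siRNF2) was called for these 4 of 9, 3 higher and 1 lower, where 11.3% of all genes were called, 3.89% higher and 7.43% lower. For EGR1 the dual log2FC was -1.71 against a sum of -3.55, a difference of 1.84 (95% interval 1.56 to 2.11, limma adjusted p = 2.2e-06). For IER3 it was -0.69 against a sum of -1.79, a difference of 1.10 (95% interval 0.75 to 1.45, adjusted p = 0.00034). For FOS it was -0.93 against -1.58 (difference 0.65, 95% interval 0.30 to 0.99, limma adjusted p = 0.0087), and for JUN 0.48 against 1.16 (difference -0.69, 95% interval -0.94 to -0.43, adjusted p = 0.00099). In each of the 4 the dual depletion was closer to siNTC than the sum. The siNTC arrays enter each single log2FC, so an offset in them would by itself give this direction. EED itself was lower in siRNF2 as well as in siEED, so the single depletions were not separate for that transcript, and the total amounts of siRNA and reagent were not matched. The part of each of these in the interaction was not tested. FOSL1 stood at -0.41 (limma adjusted p = 0.019), short of 1.5-fold. The FOS call was lost without moderation of the variance (adjusted p = 0.054) and without siEED replicate 1 (0.49), siEED+RNF2 replicate 2 (0.52) or siNTC replicate 1 (0.55), and the JUN call with quantile normalization (-0.57) or with arrays centred on their median (-0.56).

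**Figure D4:**
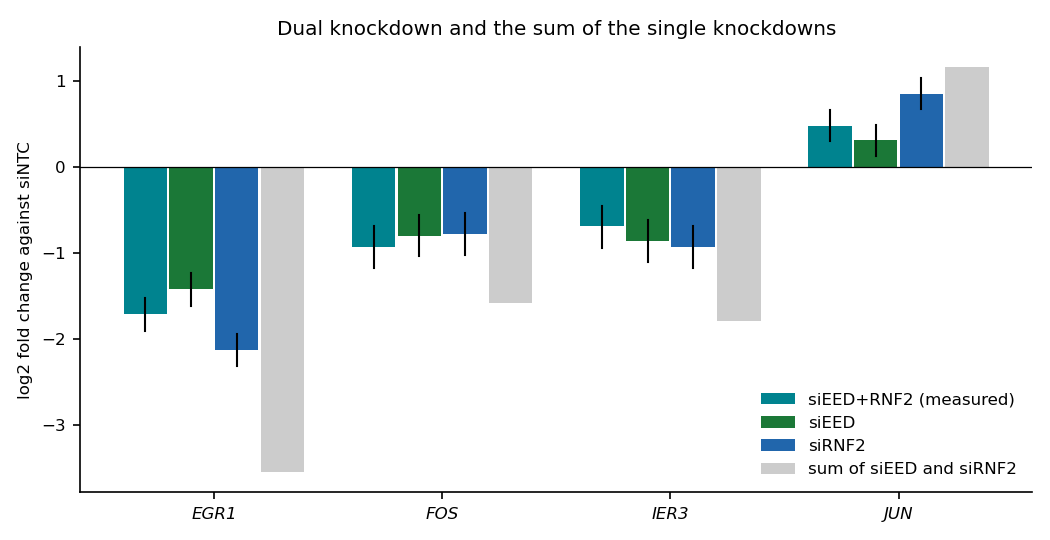
The vertical axis is the log2FC against siNTC of EGR1, FOS, IER3 and JUN in siEED+RNF2, siEED and siRNF2, with 95% intervals as black lines, and the sum of siEED and siRNF2 in grey with no interval drawn. The dual knockdown is nearer to 0 than the sum for all 4 genes, at -1.71 against -3.55 for EGR1.

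The depletions of SETD2 and WDR5, which act on methylation of H3K36 and H3K4, were also compared directly. JUN and IER3 differed, 2 of 9 members, where 5.84% of all genes were called (2.99% higher and 2.86% lower). JUN stood at 6.28 and 6.35 in siSETD2, against 7.66 and 7.62 in siWDR5, a log2FC of -1.33 (SE 0.08, limma adjusted p = 7e-07). IER3 stood at 8.07 and 8.08 in siSETD2, against 7.50 and 7.30 in siWDR5, a log2FC of 0.67 (SE 0.11, adjusted p = 0.00074). FOSL1 had -0.46 (limma adjusted p = 0.0012) and EGR3 0.25 (adjusted p = 0.021), both short of 1.5-fold, and for EGR1 and FOS the differences were 0.06 (95% interval -0.14 to 0.25) and -0.07 (95% interval -0.32 to 0.17). Without siWDR5 replicate 2 IER3 was not called (0.58).

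Between siWDR5 and siEED, EGR1 and FOS were called, 2 of 9 members and both higher in siWDR5, where 3.33% of all genes were called (1.1% higher and 2.23% lower). FOS stood at 7.13 and 7.03 in siWDR5, against 5.93 and 6.24 in siEED, a log2FC of 1.00 (SE 0.11, limma adjusted p = 9e-05). EGR1 stood at 8.0 and 8.04 in siWDR5, against 7.46 and 7.29 in siEED, a log2FC of 0.65 (SE 0.09, adjusted p = 0.00035). FOSL1 (0.40), JUN (0.32), IER2 (0.34) and IER3 (0.36) passed an adjusted p of 0.05 in limma with less than 1.5-fold. Without siEED replicate 2 EGR1 was not called (0.56).

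Other genes of the same circuit were read from 8 lists. Their counts stand beside 6.02%, 6.37%, 10.2%, 11.5% and 5.82% of all genes called in siWDR5, siEED, siRNF2, siEED+RNF2 and siSETD2. Among 4 EGR relatives and cofactors, 1 was called lower in every knockdown but siSETD2, where 0 were called and 2 passed a raw p under 0.05 in limma, both lower (medians -0.17, -0.12, -0.01, -0.09 and -0.20 in siWDR5, siEED, siRNF2, the dual siEED+RNF2 and siSETD2). It was NAB2, a corepressor that binds EGR1 and is itself a target of it, which stood at 5.46 and 5.50 in siRNF2, against 6.65 and 6.20 in siNTC. Both siRNF2 arrays lay below both siNTC arrays, which were themselves well apart. The log2FC values of NAB2 were -0.66, -0.94, -0.94, -0.90 and -0.37 in the same order.

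Among 9 other AP-1 subunits, 1, 2, 2, 2 and 0 were called higher and 0, 0, 0, 0 and 1 lower in the 5 knockdowns in that order (medians 0.11, 0.17, 0.13, 0.10 and -0.12), and at a raw p under 0.05 in limma 2, 4, 3, 3 and 1 were higher and 3, 2, 0, 1 and 2 lower. ATF3, a stress-induced AP-1 partner and also a target of ATF4, stood at 7.19 and 7.23 in the dual siEED+RNF2 arrays, against 5.65 and 5.48 in siNTC. It rose with a log2FC of 1.28 for siWDR5, 1.17 for siEED, 1.5 for siRNF2 and 1.65 for siEED+RNF2, and its value in siSETD2 was 0.01. JDP2, which pairs with JUN and represses AP-1 sites, rose with a log2FC of 0.83 for siEED, 0.76 for siRNF2 and 0.87 for siEED+RNF2, with 0.34 in siWDR5 and -0.19 in siSETD2. ATF2, a JUN partner, had a log2FC of -0.63 in siSETD2, where it was called lower.

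Of 29 other immediate early genes 28 were measured. Those called higher numbered 3, 1, 2, 2 and 1 and those called lower 1, 2, 2, 1 and 3 in the 5 knockdowns (medians 0.04, -0.09, -0.13, -0.06 and -0.03). At a raw p under 0.05 in limma, whatever the fold, 8, 5, 6, 7 and 7 had a higher level and 5, 10, 12, 11 and 8 a lower one. NR4A2, an orphan nuclear receptor, stood at 4.87 and 5.03 in siSETD2, against 6.09 and 5.88 in siNTC, with log2FC values of -0.89 for siEED, -0.90 for siRNF2, -0.96 for siEED+RNF2 and -1.04 for siSETD2, all called, and -0.19 for siWDR5. CCN2, a secreted matricellular protein, was called lower in siWDR5 (-0.66), siRNF2 (-0.93) and siSETD2 (-0.76). KLF6, a zinc finger factor, rose with a log2FC of 0.62 to 0.76 everywhere but in siSETD2 (0.10, limma adjusted p = 0.35), and PHLDA1 in siWDR5 (0.90) and siRNF2 (0.70). Genes induced together by serum thus went in both directions within a knockdown.

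Of the factors that act at immediate early promoters, 6 of 7 on a list of serum response factor, its ETS cofactors and CREB were measured, with medians of -0.25, -0.24, -0.31, -0.26 and -0.15. CREB1 was called lower in siEED+RNF2 (-0.85) and siSETD2 (-0.60), and it stood at 10.49 and 10.42 in the dual siEED+RNF2 arrays, against 11.32 and 11.31 in siNTC. In siWDR5, siEED and siRNF2 none of the 6 was called by limma, and at a raw p under 0.05, whatever the fold, 0, 1 and 1 were higher and 4, 4 and 4 lower. Among 15 of 20 measured genes of the MAP kinase cascade, 2, 2, 1, 1 and 0 were called higher in the 5 knockdowns and 0 lower in any (at a raw p under 0.05, 7, 6, 7, 6 and 6 had a higher level and 1, 4, 3, 3 and 2 a lower one). RPS6KA2, an ERK-activated kinase, rose with a log2FC of 0.71 for siWDR5, 0.83 for siEED, 1.12 for siRNF2 and 1.06 for siEED+RNF2, and RPS6KA5, a kinase that phosphorylates CREB, by 0.70 in siWDR5 and 0.68 in siEED.

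Among feedback genes of ERK signalling, which ERK induces and which then restrain it, DUSP6 and SPRY4 fell in the polycomb knockdowns and DUSP6 in siSETD2. Of 12 measured, 0, 2, 2, 2 and 1 were called lower and 0 higher in limma (medians 0.14, -0.19, -0.21, -0.17 and 0.21), while at a raw p under 0.05, whatever the fold, 5, 0, 0, 0 and 6 had a higher level and 0, 6, 7, 6 and 3 a lower one. DUSP6 stood at 5.70 and 5.70 in the dual siEED+RNF2 arrays, against 7.95 and 8.02 in siNTC, a log2FC of -2.29, and its value was -0.83 in siSETD2 (called) and -0.12 in siWDR5 (limma adjusted p = 0.36). SPRY4, a second feedback inhibitor, had -0.92 in siEED+RNF2, 0.16 in siWDR5 and 0.28 in siSETD2. In siSETD2, then, DUSP6 fell while SPRY4 was at 11.33 and 11.33, against 11.01 and 11.08 in siNTC.

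Of 16 AP-1 and EGR1 targets 14 were measured, with 2, 2, 1, 3 and 0 called higher and 0, 0, 0, 0 and 2 lower (medians 0.00, -0.05, -0.07, 0.03 and -0.03), and 3, 4, 4, 4 and 2 higher and 2, 4, 4, 2 and 4 lower at a raw p under 0.05 in limma. PLAU, the urokinase gene, stood at 8.57 and 8.72 in siEED, against 6.31 and 6.34 in siNTC, and rose with a log2FC of 2.32 for siEED, 2.15 for siRNF2 and 2.21 for siEED+RNF2. CD44, a hyaluronan receptor, rose in siWDR5 (0.89) and was called lower in siSETD2 (-0.67), with 0.49 in siRNF2, short of 1.5-fold. FN1, which encodes fibronectin, was called lower in siSETD2 (-1.14), and PDGFA, a growth factor, rose in siEED (0.66) and siEED+RNF2 (0.62). Whether these genes follow EGR1, FOS or JUN here was not tested.

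Heat shock genes, which respond to stress through another factor, were set beside the members. Of 10 listed 8 were measured, with 1, 0, 0, 1 and 0 called higher and 0, 2, 1, 3 and 0 lower (medians -0.23, -0.33, -0.43, -0.42 and 0.03), and 1, 1, 1, 1 and 2 higher and 5, 6, 7, 7 and 1 lower at a raw p under 0.05 in limma. HSPA8, a constitutive chaperone, stood at 13.22 and 13.20 in siRNF2, against 14.24 and 14.26 in siNTC, a log2FC of -1.04, with -0.71 in siEED and -0.83 in siEED+RNF2. HSPH1 (-1.0) and HSP90AA1 (-0.79) were called lower in siEED+RNF2, and HSPB1, a small heat shock protein, rose in siWDR5 (0.78) and siEED+RNF2 (0.71). Of the pluripotency markers 2 were called higher in siSETD2. At a raw p under 0.05 in limma, 1, 0, 0, 0 and 2 of the 7 measured were higher and 3, 6, 5, 4 and 0 lower. Their medians were -0.14, -0.20, -0.28, -0.23 and 0.07 in the same order of knockdowns. The part of a stress response, or of the pluripotency markers called lower in siWDR5 (LIN28A, -0.68) and siEED+RNF2 (L1TD1, -1.08, and LIN28B, -0.90), in the values of the members was not tested.

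**Figure D5:**
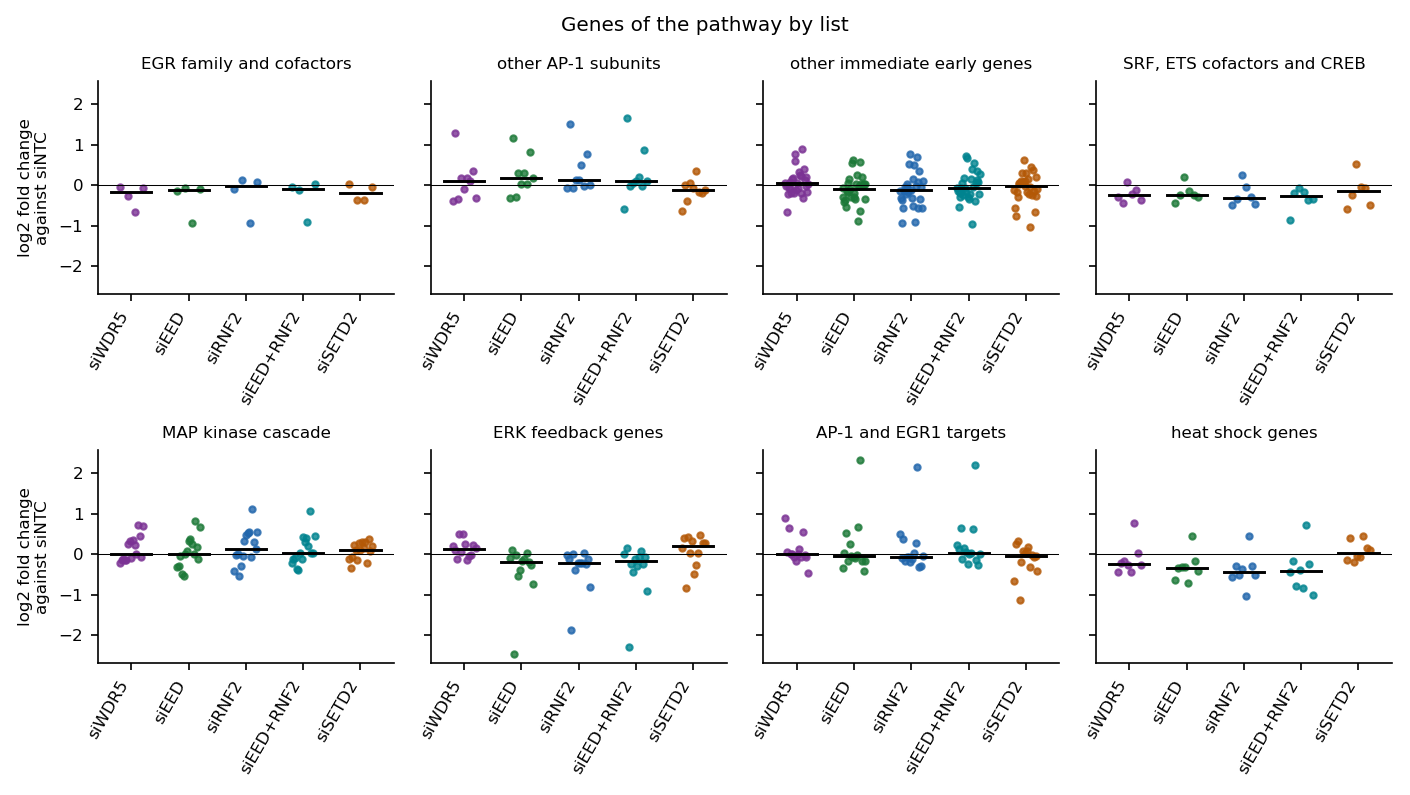
The vertical axis is the log2FC against siNTC of the measured genes of 8 lists in the 5 knockdowns (horizontal axis). Points are genes and black bars are medians over the list. Most genes lie near 0, with DUSP6 at -2.46 in siEED and PLAU at 2.32 in siEED at the extremes.

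The genes whose 6 condition means ran most like those of a called member were sought among 2335 genes (2336 for FOSL1) whose condition means had an SD of at least 0.3. For EGR1 they were TRERF1 (Pearson's r 0.994), SORBS2 (0.987) and TM4SF18 (0.983), and for FOS they were PTPRZ1 (0.991), SPRY4 (0.991) and BRINP1 (0.983). For FOSL1 they were CDH11 (0.986), DUSP10 (0.969) and IGFBP7 (0.966), for JUN FRAS1 (0.983), RAB13 (0.982) and PLXNA2 (0.978), and for IER3 the pseudogene ROCK1P1 (0.990), FAM98A (0.988) and NIPAL1 (0.987). No gene recurred among these sets of 3, which says little about likeness between members, since so few were picked from so many. Over the 12 arrays EGR1 correlated with IER3 at 0.83 and with FOS at 0.8, and FOS with IER3 at 0.75. JUN correlated with IER3 at -0.84, with EGR1 at -0.6 and with FOS at -0.5. FOSL1 ran from -0.39 with IER3 to 0.54 with JUN. With 6 means taken from the same 12 arrays, and the nearest genes picked as the best, all these correlations are a description of shape only.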

How the data were processed

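Members and gene lists were chosen with earlier results of these data known, so counts over them are descriptions. The authors deposited 1 table of log2 values for 33297 transcript clusters on 12 arrays (value columns left unused: 0). GCRMA and Partek are named in the submitters' processing notes, with versions and settings not given in the sources used here, and such normalization sets the level of each array. Through the platform annotation, with symbols updated against RefSeq (GRCh38.p14), 19460 clusters had 1 gene (19429 matched by gene number), 1754 had several and 12083 had none. For 769 genes with several clusters the one with the highest mean was used.

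Condition means were fitted over the 12 arrays in limma 3.58.1 (R 4.3.3, 6 residual degrees of freedom) with empirical Bayes moderation, and p-values were adjusted over 18417 genes per contrast. Every member was described, and from each other list up to 4 genes with the largest change among those called. Alternatives were the compared arrays alone, a replicate block, no moderation or a robust variance trend, quantile normalization, median centring, a filter on the 30% dimmest genes, averaged clusters, all clusters, no fold or a fold of 2, an adjusted p under 0.01, another reference (the mean of the knockdowns sharing no siRNA target) and leaving out each array. The RefSeq promoter table held 7 of the 10 listed genes, and 6 of these were searched for motifs. Figures were drawn with matplotlib 3.10.9.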

Additional observations from a re-analysis of the deposited data

Results flagged for a closer look

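The effects of siEED and siRNF2 did not add up on the log2 scale for 4 of the 9 members, which a direct test of the interaction in limma picked out. The difference of the dual depletion from the sum of the single depletions was 1.84 for EGR1, 1.10 for IER3, 0.65 for FOS and -0.69 for JUN, and in all 4 the dual depletion lay closer to siNTC than the sum. The calls for EGR1 and IER3 were kept whichever array was left out, whereas those of FOS and JUN were lost under the settings given with their values above. The same 2 siNTC arrays enter this contrast for every gene. An offset in them would by itself place the dual depletion closer to siNTC than the sum. The total siRNA and reagent of the dual transfection were not matched to the single ones. For EED 32.7% of the siNTC signal was left in the dual depletion, 40.8% in siEED and 63.2% in siRNF2 (siEED+RNF2 against siEED -0.32, limma adjusted p = 0.024), and RNF2 was not analysed here. The part of these in the interaction was not tested.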

How the results depend on the processing

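All 15 of the 45 member values called against siNTC kept their call in 9 settings that changed the fit, the normalization, the transcript clusters or the filter on dim genes, and 13 of them whichever array was left out. Median centring of the arrays over the genes shifts every log2 fold change in siRNF2 by the 0.13 by which that median exceeds siNTC. Thresholds moved the counts of members called. With no fold threshold there were 6 in siEED, 6 in siEED+RNF2, 1 in siEED+RNF2 against siEED, 2 in siEED+RNF2 against siRNF2, 2 in siRNF2 against siEED, 4 in siSETD2 against siWDR5 and 6 in siWDR5 against siEED. By the same rule 35.4%, 42.1%, 13.7%, 17.4%, 10.7%, 31.6% and 20.1% of all genes passed, in that order. With a fold threshold of 2 there was 1 (EGR1) in each polycomb knockdown, 0 in siWDR5 and in siSETD2, 0 in siRNF2 against siEED, 1 in siSETD2 against siWDR5, 0 in siWDR5 against siEED and 2 for the interaction. The share of all genes at a fold of 2 was not taken, so these counts are descriptions. With the mean of the other knockdowns as the reference there were 1 in siEED and 4 in siSETD2, and EGR1 turned to 0.72 in siWDR5 and 0.79 in siSETD2, since that mean holds the polycomb depletions. The share of all genes under this reference was not taken either, so these counts are also descriptions.

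Leaving out 1 array gave 1 to 4 members in siWDR5, where FOSL1 and JUN were not called without siNTC replicate 1, and 0 to 2 in siRNF2 against siEED, 1 to 2 in siSETD2 against siWDR5, 1 to 2 in siWDR5 against siEED and 3 to 4 for the interaction. The share of all genes with an array left out was not taken, so these counts are descriptions. The replicate number as a block changed no count of members called (3, 3, 4, 3 and 2 against siNTC in the usual order of knockdowns, and 4 for the interaction), and same-numbered arrays did not deviate together (correlations of -0.11 to 0.16 over 15 pairs of conditions), so the numbers were not taken to pair the samples. EGR3 and FOSB lie among the 30% dimmest genes, so a change in them could go undetected.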
